A study of Mus musculus with 2 samples.

Results

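A set of 10 genes that act at the passage from G1 to S phase was followed in the list of GABPα ChIP-seq peaks from mouse CD4+ T cells: the F-box gene Skp2, its partner Cks1b, their substrate Cdkn1b, the cyclin genes Ccnd2, Ccnd3 and Ccne1, the kinase genes Cdk2, Cdk4 and Cdk6, and E2f1. The 10 members are named genes among 21938 protein-coding genes. The rule that lists them uses no measured value, but Skp2 was included as a reported GABP target. The members were also chosen with earlier results of these data known. Each gene was given every peak with an edge within 1000 bp of any of its GENCODE M21 transcript starts, or otherwise the nearest peak. GABPα is the DNA-binding subunit of GABP, an ETS-family transcription factor that binds GGAA cores.

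The chromatin came from CD4+ T cells that were taken from wild-type C57BL/6 mice on MACS beads. For this library the study's methods name no stimulation of the cells before they were fixed. The group labelled GABPa ChIP is 1 library made with the anti-GABPalpha antibody sc-22810X, and the group labelled input DNA is 1 library made with no antibody, which served as the control of the peak calling. There were thus no replicates, and every value describes this library and carries no test. The deposited list gives the position of 6782 peaks that passed a q value of 0.01 and an empty score column, so no height, fold enrichment or sequencing depth is known. A weaker site would not be listed, and the labelled cell type could not be checked on marker genes.

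In G1, D-type cyclins bind CDK4 and CDK6 and phosphorylate the retinoblastoma protein, which releases E2F factors. E2F factors then raise cyclin E, whose complex with CDK2 drives entry into S phase, and the inhibitor p27, encoded by Cdkn1b, holds this kinase in check. The ubiquitin ligase SCF-Skp2 recognises phosphorylated p27 together with the small protein CKS1 and marks it for destruction.

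Of the 10 members, Skp2 and Cks1b had a peak, and the 8 others had none. That is 2 of 10 beside 17.7% of all protein-coding genes, so the count of members lies near the background. Both genes with a peak act in the same ligase, and both lie head to head with another protein-coding gene whose start is less than 1000 bp away on the opposite strand. Among all genes with such a divergent neighbour 49.5% had a peak, and among the genes without one 13.8% had a peak. Of the 8 members without a peak, Cdk2 alone had a divergent protein-coding start, that of Pmel. The 1000 bp limit divided the members widely, since the farther of the members inside it, Cks1b, lay 162 bp from its peak and the nearest outside it, Ccnd3, lay 14280 bp from one.

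**Figure D1:**
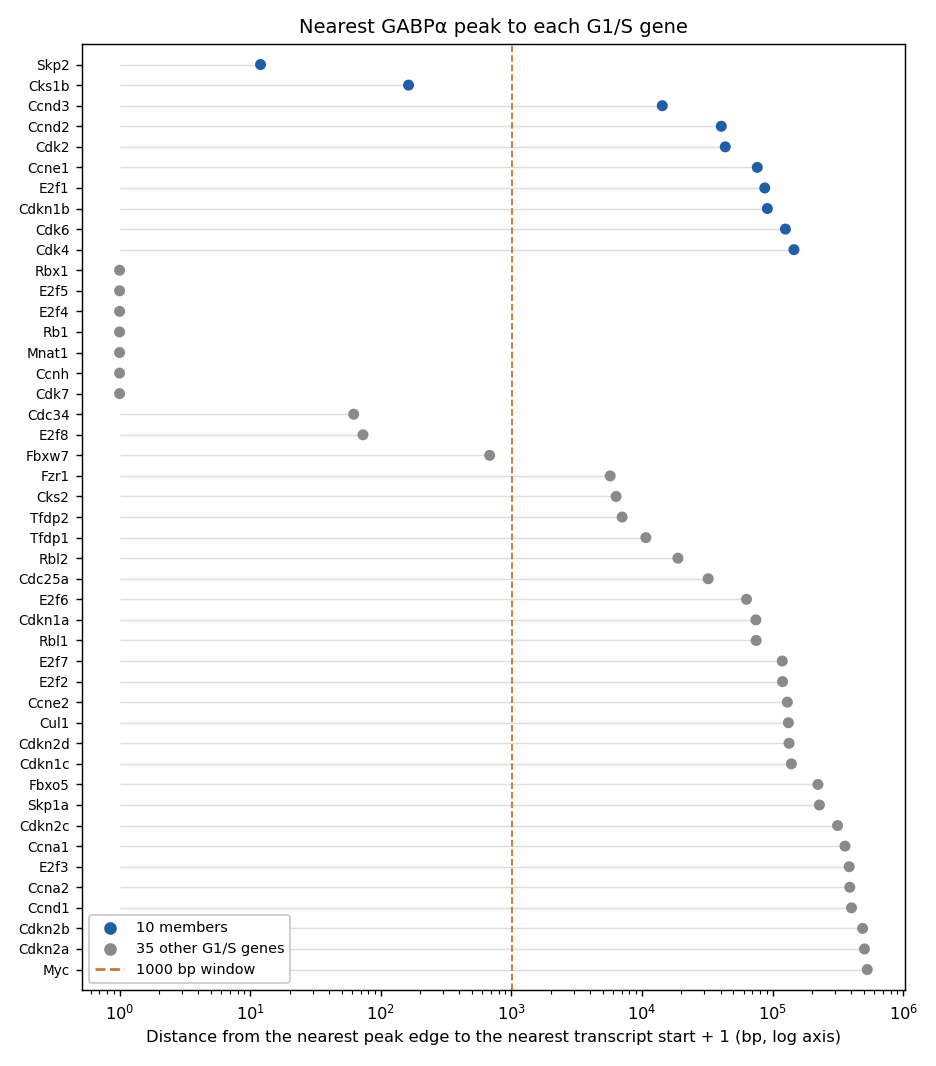
The horizontal axis is the distance in bp (plus 1, log axis) from the nearest peak edge to the nearest transcript start, with the 10 members in blue and the 35 other G1/S genes in grey; a point at the left end means that the peak covers a start. Skp2 and Cks1b lie left of the dashed 1000 bp line, and the other members lie between 14280 and 145447 bp.

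The sequences at issue are the copies of the ETS word CGGAAG in these peaks, and the copies in member promoters that had no peak. Each is shown as 30 bases of mm10 around the word, read 5′ to 3′ on the strand that carries it, with CGGAAG in capitals.
Skp2 peak, chr15:9140530-9140559, plus strand: aggacaggcaggCGGAAGtgggtggagctc
Cks1b peak, chr3:89418562-89418591, plus strand: ggttagtgaggcCGGAAGtgagtgtaataa
Cks1b peak, chr3:89418768-89418797, minus strand: atacagcaagacCGGAAGtagggtcctggg
Cks1b peak, chr3:89418811-89418840, plus strand: gagacccctctcCGGAAGtcccaccttcct
Ccnd3 inner promoter, no peak, chr17:47593318-47593347, plus strand: gacccgagggccCGGAAGcgtgcgggccgg
Cdk2 promoter, no peak, chr10:128705074-128705103, minus strand: acgtgaaccaatCGGAAGggcggggggcgg
Cdk6 promoter, no peak, chr5:3343694-3343723, minus strand: cctgggggagttCGGAAGctggcgtaaaag
Set against the 9-base ETS consensus CCGGAAGTG, the first Cks1b copy matched all 9 letters. The Skp2 copy, the other Cks1b copies and the Ccnd3 copy matched 8 letters, the Cdk2 copy 7 and the Cdk6 copy 6.

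Skp2 (ENSMUSG00000054115.11, chr15:9111985-9155425, minus strand), the F-box protein that binds p27, had its peak at chr15:9140450-9140589. The study describes GABPα binding at the Skp2 promoter as weak and under its cutoff, while the deposited list holds this peak. It also reports lower Skp2 mRNA in GABPα-deficient T cells, with cyclin D2 and CDK6 expression unaffected. The list is of peaks that passed a q value of 0.01, which differs from that description. With no score in the list, how far the peak stood above this limit could not be read. The difference could not be settled, and the call rests on the presence of the peak in the list alone. The annotation gives the gene 5 transcripts with 5 starts that spread over 15073 bp in an inner and an outer cluster. The peak lay at the inner cluster: its edge was 11 bp upstream of the start of Skp2-202, 85 bp from that of the principal transcript Skp2-201 and 98 bp from that of Skp2-205. The outer starts, of Skp2-203 and Skp2-204, were 14835 and 14836 bp away and had no peak. Read against the outermost start alone, the Skp2 gene would count as unbound, which was so for 284 (7.32%) of the 3880 protein-coding genes with a peak. The whole peak fell within an intron of the longer Skp2-203, while RefSeq places the inner start at 9140454, inside the peak.

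The same 140 bp also held a start of Lmbrd2, the gene that runs the opposite way. Lmbrd2-204, its principal transcript, begins at 9140550, and the RefSeq starts at 9140548 and 9140570 are likewise in the peak. The peak covered 40 bases of the 5′ untranslated first exon of Lmbrd2-204. Between the RefSeq starts of the pair lie 93 bases, shown because the whole stretch is within the peak and ends with its only CGGAAG copy (capitals, chr15:9140455-9140547, plus strand).
Skp2 to Lmbrd2: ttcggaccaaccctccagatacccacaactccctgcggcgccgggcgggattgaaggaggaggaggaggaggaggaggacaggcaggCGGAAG
The copy lies at 9140542 to 9140547 on the Lmbrd2 strand, directly before the first RefSeq start of Lmbrd2. Read in the direction of Skp2, it lies 182 bp upstream of the principal Skp2 start, and its centre was 25 bp from the midpoint of the peak. The longer word CCGGAAG was not found, since the base before the copy is G. Of the bases of the peak 63.6% are G or C and 26.4% are soft-masked as repeats, and all 105 of its 36-base sequences, the length of a read, occur at 1 place in the genome.

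Cks1b (ENSMUSG00000028044.6, chr3:89415472-89418383, minus strand) encodes the CKS1 protein that helps Skp2 to hold phosphorylated p27. Its peak, at chr3:89418545-89418896, was 352 bp wide. The 3 annotated starts, spread over 366 bp, were 162 bp, 326 bp and 528 bp from the peak edge, and the RefSeq start was 254 bp away. The peak thus lay wholly upstream of Cks1b and covered none of its starts.

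The Cks1b peak lay on the first exon of Shc1, which encodes an adaptor protein of receptor signalling. It covered 4 GENCODE starts of Shc1 and both of the RefSeq starts at 89418551 and 89418556, and the Shc1 start nearest to Cks1b, at 89418443, was 102 bp outside it. Of Shc1-201, whose first exon runs into the peak, 165 bases of the peak were untranslated exon and the rest was intron. The 59 bases between the nearest starts of Cks1b and Shc1 hold no CGGAAG. The Cks1b peak held 7 GGAA cores and 3 copies of CCGGAAG. The CGGAAG copies within them lay 196, 402 and 445 bp upstream of the principal Cks1b start, and were 144, 62 and 105 bp from the midpoint of the peak. Its G and C content was 59.4%, none of it was soft-masked, and 89.3% of its 317 sequences of 36 bases occur at 1 place in the genome.

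**Figure D2:**
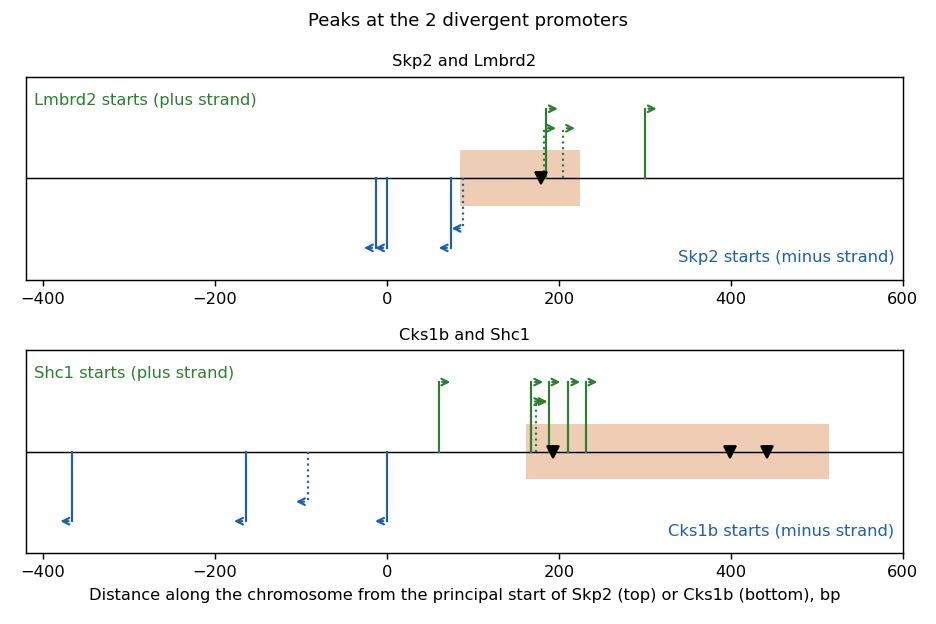
The horizontal axis is the distance along the chromosome in bp from the principal start of Skp2 (top) or Cks1b (bottom), with the peak as an orange box, CGGAAG copies as black triangles, and starts as arrows (solid GENCODE M21, dotted RefSeq). In the Skp2 panel the box reaches starts of both genes, and in the Cks1b panel it lies on the starts of Shc1, beginning 162 bp from the Cks1b start.

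The peaks at Skp2 and Cks1b differed in form. Among the 3459 peaks near a protein-coding start, with a median width of 210 bp and quartiles of 159 and 267 bp, 16.7% were as narrow as the 140 bp Skp2 peak or narrower, and 93.4% were as narrow as the 352 bp Cks1b peak or narrower. CGGAAG occurred in 76.6% of these peaks (Wilson 95% interval 75.2 to 78.0%, which covers counting error only), and at least 2 copies of CCGGAAG, as in the Cks1b peak, in 13.9%. The peaks were alike in lying near a start without covering a GENCODE start of the member. At 3044 (78.5%) of the 3880 genes with a peak the peak covered a start of the gene. The nearest start was farther off than the 11 bp of Skp2 at 19.8% of them, and farther off than the 162 bp of Cks1b at 8.61%. Of the peaks near a protein-coding start, 716 (20.7%) were near the starts of more than 1 such gene, as both of these were. From the list it cannot be told whether a peak in such a shared promoter bears on the member, on its neighbour or on both.

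**Figure D3:**
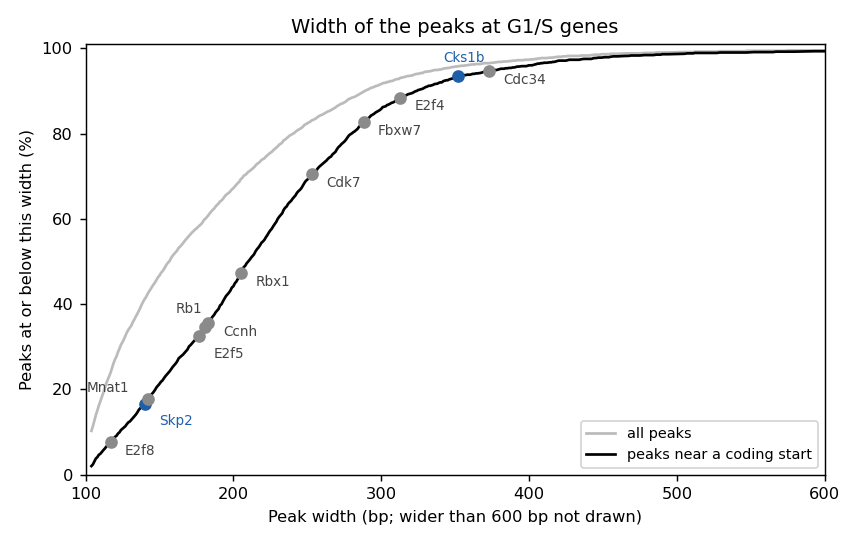
The vertical axis is the percent of peaks at or below the width in bp on the horizontal axis, for all peaks (grey line) and for those near a protein-coding start (black line), with the peaks of members (blue) and of other G1/S genes (grey points) set on the black line. The Skp2 peak, at 140 bp, is in the narrow part of the curve and the Cks1b peak, at 352 bp, in the wide part.

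Cdkn1b (ENSMUSG00000003031.14, chr6:134920401-134925513, plus strand), which encodes the p27 inhibitor that the ligase removes, had no peak. Its nearest was 90990 bp away, at chr6:135011503-135011717, on the first exon of the helicase gene Ddx47. Having no peak is the common case, since 17.7% of all protein-coding genes had one.

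None of the cyclin members had a peak. Ccne1 (ENSMUSG00000002068.16, chr7:38097984-38107534, minus strand), the gene of cyclin E1, was 76190 bp from its nearest peak at chr7:38183724-38183827, which lay in 1600014C10Rik. That peak had the smallest width in the list, 104 bp, a width that 696 of the 6782 peaks had. Ccnd3 (ENSMUSG00000034165.16, chr17:47505051-47599691, plus strand), the gene of cyclin D3, has 21 transcripts whose 19 starts spread over 92113 bp. Its nearest peak, at chr17:47611444-47611659, was 14280 bp past the start of Ccnd3-219 and 106393 bp from the principal start, at the promoter shared by Bysl, Med20 and Gm20517. Ccnd2 (ENSMUSG00000000184.12, chr6:127125162-127152193, minus strand), the gene of cyclin D2, was 40400 bp from its nearest peak, at chr6:127098644-127098752. That peak lay in an intron of Tigar with no protein-coding start within 1000 bp, was 100% soft-masked, and none of its 74 sequences of 36 bases occurs at only 1 place in the genome. Ccnd2 was the only 1 of the 8 members without a peak whose nearest peak was not near a start of another protein-coding gene.

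The kinase members, which bind these cyclins, had none either. Cdk2 (ENSMUSG00000025358.16, chr10:128697939-128705031, minus strand) was 43345 bp from a peak at chr10:128748376-128748606, on the first exon of Pym1. Cdk4 (ENSMUSG00000006728.12, chr10:127063534-127067920, plus strand) was 145447 bp from a peak at chr10:127211523-127211794, at the start of the lipid kinase gene Pip4k2c. Cdk6 (ENSMUSG00000040274.11, chr5:3341485-3531008, plus strand) was 125095 bp from its nearest peak. For Cdk4 and Cdk6 the distance is to an internal start, and from the principal starts it was 147989 and 252151 bp. E2f1 (ENSMUSG00000027490.17, chr2:154559407-154569892, minus strand), the transcription factor gene held back by the retinoblastoma protein, was 86972 bp from a peak at chr2:154656864-154656999, at the Chmp4b gene.

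The 8 members without a peak were spread over distances that are common among genes without one. Their median distance was 81581 bp, and the median over the 18058 protein-coding genes without a peak was 91699 bp, with quartiles of 34536 and 215406 bp. None of the 8 had a peak within the gene body, and Ccnd2, Ccnd3 and Cdk2 had a peak within 50000 bp of the gene. In 7 of the 8 the nearest peak lay within 1000 bp of a start of another protein-coding gene, and 3459 of all 6782 peaks lie near a protein-coding start. The matching shares over all genes without a peak are not given, so these counts are description only. Many of the 8 members have as many starts as Skp2. Of all genes with at least 5 distinct starts 28.2% had a peak, and 7 members had that many, of which Skp2 alone had a peak. Around the principal starts most of the sequence is single-copy at the length of a read, while the inner Ccnd3 promoter was not checked. In the 500 bp to either side of the principal start (for E2f1 the outermost start) every 36-base sequence occurs at 1 place in the genome for 8 members, and the share was 95.5% at Cks1b and 75.3% at Cdk6.

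The promoter sequences, from 250 bases before to 50 after the RefSeq start on GRCm38.p6, matched 9 members and gave 11 promoters, with inner and outer ones at Skp2 and Ccnd3. There was no entry for Ccnd2. The E2f1 window, set on the RefSeq start at 154569426, lay within the gene, downstream of its GENCODE starts at 154569720 and 154569892. A peak overlapped 14.1% of all 21263 protein-coding promoters. Among the member promoters it overlapped the inner one of Skp2 and no other, and the Cks1b peak began 254 bp upstream of the RefSeq start, outside its window. CGGAAG, searched on both strands, occurred in 4 of the 11 (36.4%) and in 21.1% of all promoters. The 11 belong to chosen genes, and Skp2 and Ccnd3 enter with both an inner and an outer promoter. The shares were therefore not tested against each other.

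Whether a promoter with the word was in the list varied with the word's match to the consensus. A peak overlapped 50.2% of the promoters with CGGAAG, 67.8% of those with the longer CCGGAAG, which contains it, and 4.44% of those without CGGAAG. By the best copy's match to CCGGAAGTG, the share was 16.3% at 6 letters, 39.8% at 7, 71.5% at 8 and 84.1% at all 9. The Cdk6 copy, 187 bp before the start, and the Cdk2 copy, 40 bp before the start, were of the classes in which most promoters had no peak. The inner Ccnd3 promoter, whose RefSeq start is at 47593467, was different: its copy, 137 bp before the start, is part of CCGGAAG and matched 8 letters as the Skp2 copy did, yet its nearest peak was 17977 bp away. The outer Skp2 promoter, also without a peak, held no CGGAAG, and its G and C content of 43.7% was the lowest of the 11 promoters, whose median was 64.7%.

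**Figure D4:**
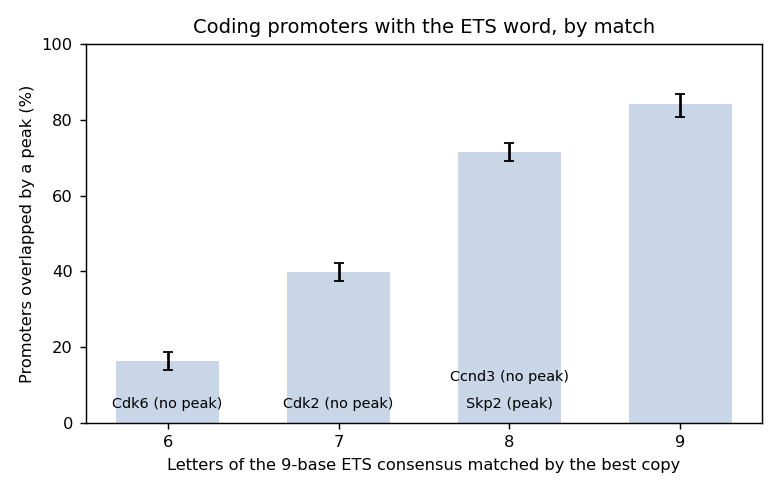
Bars give the percent of protein-coding promoters overlapped by a peak, by how many letters of the 9-base ETS consensus the best CGGAAG copy matches, with Wilson 95% intervals. The share rises from 16.3% at 6 letters to 84.1% at 9, and the members are written in the bar of their class, where Skp2 and Ccnd3 share the class of 8 letters with and without a peak.

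Words of other factors were also counted on both strands in the 11 promoters, as a description of letters only. GGAA, the ETS core that CGGAAG contains, occurred in 9 and in 95.7% of all promoters. It was missing from the Ccne1 promoter and from the E2f1 window, which lies downstream of the GENCODE starts of E2f1. The E2F word TTTNNCGC, which can overlap GGAA, occurred in the promoters of Cdk2 and Cdk6 and in 6.24% of all. GGGCGG, the GC box of Sp1, occurred in 9 of the 11 and in 46.2% of all, CCAAT in 5 of the 11 and in 38.2% of all, and the cyclic AMP response element TGACGTCA in none of the 11 and in 2.23% of all. The member promoters were rich in G and C, with a median of 64.7% against 56.3% for all promoters.

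**Figure D5:**
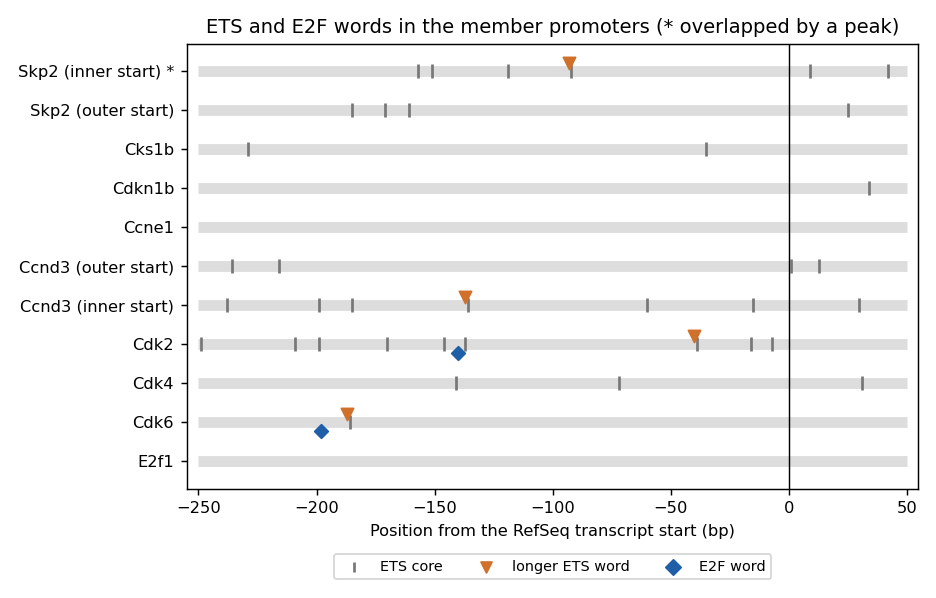
The horizontal axis is the position in bp from the RefSeq transcript start, and each grey bar is 1 of the 11 member promoters, with ETS cores as ticks, CGGAAG copies as orange triangles and E2F words as blue diamonds. Triangles are in 4 promoters, at Skp2, Ccnd3, Cdk2 and Cdk6, and an asterisk marks the inner Skp2 promoter as the one overlapped by a peak.

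Of 35 other genes of G1 to S entry, listed for their textbook roles, 10 had a peak, and with the members 12 of 45 did, beside the 17.7% of all protein-coding genes given above. The members and this list were chosen with earlier results of these data known, so the counts are description only. The counts by role are small and were not tested against each other. The D-, E- and A-type cyclins had none in 7 genes, the G1 kinases none in 3, the CDK inhibitors none in 7 and the DP partners of E2F none in 2. Cdc25a and Myc had none. Of the 5 SCF-Skp2 genes, Skp2, Cks1b and the RING subunit gene Rbx1 had a peak, and the genes of the adaptor, Skp1a, and the scaffold, Cul1, had none. All 3 genes of the CDK-activating kinase had one: Cdk7, Ccnh and Mnat1. Rb1 was the 1 of the 3 pocket protein genes with a peak, and E2f4, E2f5 and E2f8 were the 3 of 8 E2F genes. Among 5 further genes of ubiquitin ligases and their partners, the F-box gene Fbxw7, whose protein targets cyclin E, and the E2 enzyme gene Cdc34 had one.

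At 7 of the 10 other G1/S genes with a peak, the peak covered a GENCODE start, beside 78.5% of all protein-coding genes with a peak. The member peaks covered no GENCODE start of the member, though the Skp2 peak covered its RefSeq start. None of the 35 genes, with or without a peak, has a divergent protein-coding neighbour within 1000 bp. E2f8 lay 72 bp from its peak, Cdc34 61 bp and Fbxw7 680 bp. The widths ran from 117 bp at E2f8 to 373 bp at Cdc34 with a median of 194 bp, so that the Skp2 peak was narrower than all but E2f8 and the Cks1b peak wider than all but Cdc34. CGGAAG was in 6 of the 10, with 4 copies each in the peaks of Cdk7 and E2f4 and 1 each in those of Rb1, E2f8, Rbx1 and Cdc34. CCGGAAG was in those of Cdk7 and Cdc34, with 2 copies and 1, against the 3 of Cks1b. Over all 3459 peaks near a protein-coding start, CGGAAG was in 76.6% and CCGGAAG in 57.2%. The 10 peaks were not tested against these shares.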

How the data were processed

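GABPα ChIP and input DNA of CD4+ T cells were sequenced by the authors as 36-bp single-end reads. Per the study's methods and the submitters' processing notes, the authors cut bases under a quality of 20, dropped reads under 30 bases with Trimmomatic, aligned the rest to mm10 with Bowtie and used MACS2 to call peaks over the input, with a q value cutoff of 0.01. Versions, and the treatment of reads that match several places, are not given in the sources used here. The file deposited by the authors holds positions in bp and a strand, with no other measure, so the results rest on places and not on heights.

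Starts were taken as 0-based and are printed 1-based. Distances run from the nearest peak edge to GENCODE M21 starts. A start counted as divergent when on the other strand within 1000 bp, with the minus-strand start at or before the plus-strand start. The principal transcript is that tagged so by APPRIS. E2f1 has none, so its outermost start was used. Words and unique 36-base sequences (both strands) were searched as exact letters in the GRCm38.p6 sequence, which is the mm10 build, and promoters are those of RefSeq on that build. The 11 member promoters and all others equalled the genome letter by letter. All 10 members are named, as are the other G1/S genes with a peak and the genes that share a member's peak. The place of the peak nearest to Cdk6 is not reported here. The members and lists were chosen with earlier results of these data known. No test was run, since there is 1 ChIP library. Distances, calls and words were checked on simulated data. Python 3.11.15 was used with pysam 0.24.0, pandas 2.3.3, numpy 2.4.6, scipy 1.17.1 and matplotlib 3.10.9. Alternatives covered the window, the starts, the peaks and the words used. The expression arrays of the study were not analysed here.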

Additional observations from a re-analysis of the deposited data

How the results depend on the processing

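The 2 members with a peak, Skp2 and Cks1b, were the same under 8 of 10 alternatives: windows of 500, 2000 and 5000 bp, starts of protein-coding or basic transcripts only, peaks under 50% soft-masked, distances from the midpoint, and merged peaks. With only the outermost start of each gene, or only peaks at least as wide as the list's median of 157 bp, 1 remained, Cks1b. The percent of all protein-coding genes with a peak, 17.7, became 17.2 with a 500 bp window, 19.9 with 5000 bp, 16.4 with the outermost start and 14.0 with the wider peaks, and lay between 17.2 and 18.2 under the 6 others. The other G1/S genes with a peak numbered 8 to 10 under all 10 alternatives. With CCGGAAG in place of CGGAAG, the member peaks with the word went from 2 to 1 and the member promoters from 4 to 1. With GGAA the promoters were 9, and with 500 bases to either side of the start they were 5. With no heights or depths, an unlisted promoter cannot be told from one with binding below the peak caller's limit, and 1 library gives no measure of how the list would vary in another.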

Other observations

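The list also gives each peak a strand. Each peak was matched to the gene of any type whose outermost start was nearest to the peak midpoint. The listed strand equalled the strand of that gene at 6133 (90.4%) of the 6782 peaks. Both member peaks are listed on the plus strand, which is that of Lmbrd2 and Shc1, while Skp2 and Cks1b are on the minus strand.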
